A study of Mus musculus with 8 samples.

Results

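Amino acid transporter genes were examined in mouse keratinocytes (KCs), the epithelial cells of the epidermis, kept in culture for 1 or 3 weeks. The transporter genes were taken by name. They are all protein-coding genes of the deposited tables whose symbol places them in the families Slc1a, Slc3a, Slc7a, Slc36a, Slc38a or Slc43a. This gave 42 genes of the 41457 listed, of which 21949 are protein-coding. The Slc7a family holds 15 of them, Slc38a 11, Slc1a 7, Slc36a 4, Slc43a 3 and Slc3a 2. Poly(A) RNA was sequenced at each time from 4 samples. All 8 samples were untreated KCs from the tail skin of adult wildtype mice, labelled C57BL/6 and named C57BL/6J in the study. They were grown in serum-free medium with little calcium and passaged near confluence. The labels number them as replicates 1 to 4 at each time. The labels describe 4 independent experiments. According to the study, batches of KCs were the same at both times. By the numbers in the deposited files' names, preparations 46, 49 and 90 gave a sample at each time, while 47 gave one at 1 week and 57 one at 3 weeks, so the samples were not fully independent. How many animals went into a preparation is not given in the sources used here. The tests below do not pair samples, and where a block on the 3 shared preparations changed a call this is said beside it. The comparison asks how the RNA levels of these genes differ between KCs of the early and the prolonged culture.

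Amino acids cross membranes through carriers, and in growing cells several types of carrier work side by side. The light chains of Slc7a are held at the plasma membrane by a heavy chain of Slc3a, and such a pair exchanges an amino acid inside the cell for another outside. Carriers driven by sodium, such as those of Slc38a and Slc1a, load the cell with glutamine, alanine and serine. Exchangers then trade these for leucine and other essential amino acids. Other members sit on lysosomes and report amino acids to mTORC1, the kinase complex that couples nutrient supply to growth. When amino acids run short, the transcription factor ATF4 raises the transcription of several of these carriers.

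Between 13896807 and 20026084 reads per sample were counted on exons. The highest and lowest totals were both found at 1 week, so that depth did not separate the times. The levels of the keratin genes Krt5 and Krt14, which mark basal KCs, were at least 1940 RPKM in every sample. RPKM are reads scaled by exon length and by the depth of the library. None of the 6 fibroblast, 6 immune and 4 endothelial marker genes exceeded 3.34 RPKM in any sample. Several markers moved between the times. The summed RPKM of 10 basal KC markers was 12500 to 14800 at 1 week and 7560 to 8720 at 3 weeks (nearly all of it Krt5 and Krt14), that of 6 suprabasal markers 23.4 to 125 and 21.1 to 68.0, that of 4 smooth muscle markers 139 to 367 and 1120 to 2720 (nearly all of it Acta2), and that of 6 melanocyte markers 3.25 to 21.0 and 1.28 to 5.60. Basal markers did not move alike, with means of 6170 and 2210 RPKM for Krt5, 134 and 71.8 for Itga6, 116 and 139 for Itgb4 and 193 and 262 for Cdh1. Of the smooth muscle genes, Cnn1 had a mean of 1.96 RPKM at 1 week and 18.4 at 3 weeks, Myh11 ranged over 0.0138 to 0.0447 and 0.0320 to 1.50 RPKM, and Des was at most at 0.162 RPKM. The part of these markers in the results below was not tested, and in bulk RNA fewer cells of a type and less RNA per cell cannot be told apart.

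The 42 genes together held less RNA after 3 weeks. In the order of the replicate numbers, their summed RPKM was 393, 465, 270 and 345 at 1 week and 155, 160, 126 and 146 at 3 weeks. Every 3-week sum was below every 1-week sum, and the means were 368 ± 82.0 and 147 ± 15.0 (SD, n = 4 per group). As a share of all exon reads, the genes took 0.158% to 0.253% at 1 week and 0.0740% to 0.0943% at 3 weeks. A few genes carried most of this RNA. Slc7a5, Slc3a2 and Slc38a2 made up 70.6% ± 2.83 of the sum at 1 week and 54.0% ± 4.78 at 3 weeks (SD, n = 4).

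**Figure D1:**
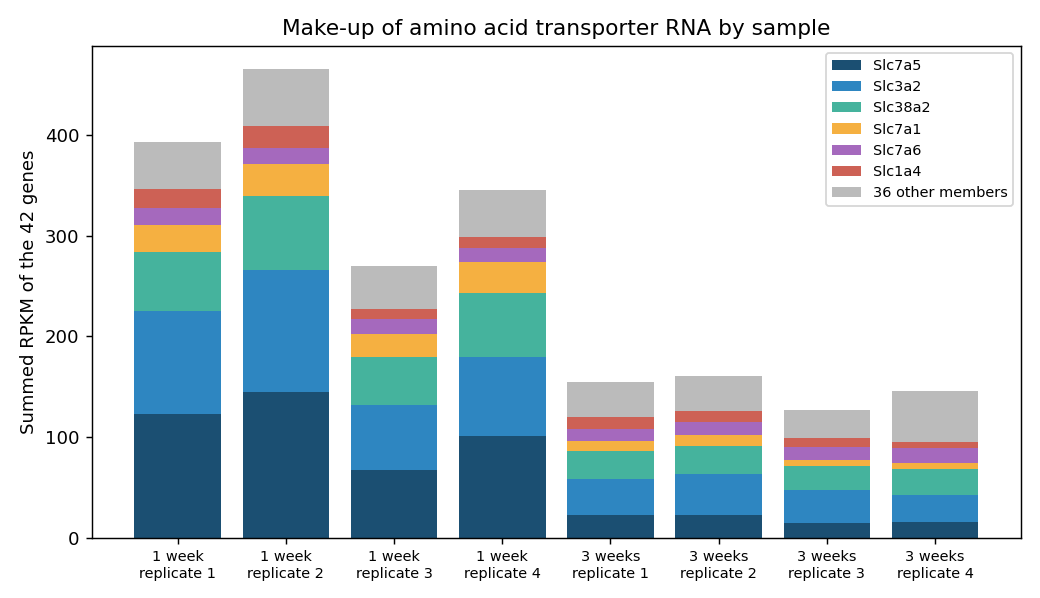
Summed RPKM of the 42 amino acid transporter genes in each sample, with the 6 genes of the highest mean level in colours and the other 36 in grey. The bars reach 270 to 465 RPKM at 1 week and 126 to 160 at 3 weeks, and the Slc7a5 segment shrinks most, from 67.4 to 145 RPKM down to 15.1 to 22.6.

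Reads sufficed to test 24 of the 42 genes. Of these 24, 11 passed the threshold between the times (edgeR's quasi-likelihood test, adjusted p-values under 0.05), as 32.8% of all 12590 tested genes did. After 3 weeks 9 were lower, which is 37.5% of the tested transporter genes against 17.0% of all genes, and 2 were higher, 8.33% against 15.7%. The values of the groups did not overlap in RPKM for 9 genes with lower and 1 gene with higher levels at 3 weeks, as was found for 26.2% and 10.8% of all tested genes. A gene with reads at a single time enters the test only through that time and has to differ, which applies to Slc7a14. It nearly applies to Slc38a4 and Slc43a3, which passed the filter on low reads through their 1-week samples. At 3 weeks they had 4 to 16 and 5 to 10 reads per sample. Where at least 10 reads were required in every sample, Slc7a14, Slc38a4, Slc43a3 and Slc7a7 dropped out. Then 7 of 20 genes were lower and 1 was higher, against 17.0% and 15.4% of all genes. The median log2 fold change of the 24 genes was -0.08 and that of all tested genes 0.03. Of the 13 transporter genes that did not pass the threshold, 9 had positive values. All log2 fold changes are 3 weeks over 1 week on reads scaled by TMM, which corrects for library composition. RPKM values carry no such correction, and on log2(RPKM + 0.1) the median of all genes was -0.16. With that scale, 1292 genes were higher and 3025 lower in limma, in place of 1981 and 2146 in edgeR.

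**Figure D2:**
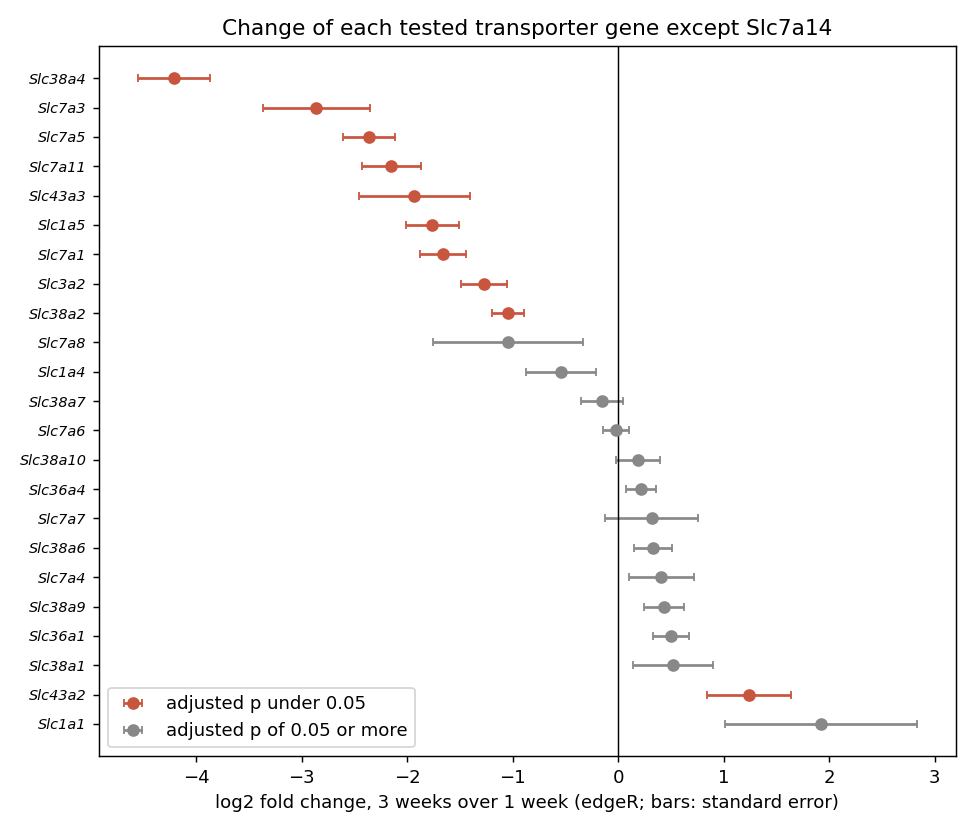
Log2 fold change of the 23 tested transporter genes other than Slc7a14 (points) with the standard error from edgeR (bars). The 9 genes that were lower at 3 weeks span -4.21 to -1.04, and Slc43a2 alone of those shown was higher with an adjusted p-value under 0.05.

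By RPKM, the heavy chain and its main light chain were the most abundant transporter transcripts at 1 week, and both fell. Slc3a2 (ENSMUSG00000010095, chromosome 19 of GRCm38, 8706882 to 8723369) encodes CD98, the heavy chain that brings Slc7a5, Slc7a6, Slc7a7, Slc7a8, Slc7a10 and Slc7a11 to the plasma membrane. Its RPKM values were 102, 121, 64.0 and 78.4 at 1 week, against 36.3, 40.4, 32.5 and 26.1 at 3 weeks. No 3-week sample reached the lowest 1-week sample, and the log2 fold change was -1.27 (standard error 0.22, adjusted p = 0.00305, edgeR). The other heavy chain gene, Slc3a1, had 17 exon reads in all 8 samples, and 97.6% of the reads on it lay in introns. It overlaps Prepl on the opposite strand, a gene that rose by 1.02 on the log2 scale (adjusted p = 0.00758, edgeR), and the library kit does not mark the strand.

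Slc7a5 (ENSMUSG00000040010, chromosome 8, 121881150 to 121907694) encodes LAT1, the exchanger that imports leucine, phenylalanine and other large neutral amino acids. It was at 123, 145, 67.4 and 101 RPKM at 1 week and at 22.3, 22.6, 15.1 and 16.1 RPKM at 3 weeks. The highest 3-week sample was thus well below the lowest 1-week sample. The log2 fold change was -2.36 (standard error 0.25, adjusted p = 0.000391, edgeR), or 5.14-fold lower. The gene lies inside Gm20388, a gene model on the opposite strand that spans many genes, and 17.3% of its exon reads were counted as unique. Counting these reads alone, the change was -2.43 on the log2 scale (adjusted p = 0.000302, edgeR). Gm20388 itself moved the other way, by 0.43 (adjusted p = 0.0398, edgeR). At 1 week Slc7a5 was the first of the 42 genes by mean RPKM, with 29.2% ± 2.93 of their sum, and at 3 weeks it was in place 3, with 12.9% ± 1.65 (SD, n = 4). Slc3a2 moved from place 2 to place 1 with a share of 24.6% ± 1.64 and 23.0% ± 3.57.

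The light chain fell further than the heavy chain. The ratio of Slc7a5 to Slc3a2 RPKM was 1.21, 1.19, 1.05 and 1.29 at 1 week and 0.616, 0.561, 0.464 and 0.615 at 3 weeks. Slc7a5 transcripts thus outnumbered Slc3a2 transcripts per length in every 1-week sample and in no 3-week sample. The mean log2 ratio was 0.24 ± 0.12 at 1 week and -0.84 ± 0.19 at 3 weeks (SD, n = 4), a difference of -1.08. A two-sided exact permutation test over the 70 arrangements of the samples gave p = 0.0286, which is the smallest value this design can give. Adjusted over the 3 ratios tested it was 0.0429. Within the shared preparations 46, 49 and 90 the differences were -0.97, -0.91 and -1.07. A two-sided exact sign-flip test over these 3 pairs cannot go below 0.250, and it gave that value (adjusted p = 0.375). With unique reads per kilobase in place of RPKM the difference was -1.12.

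Slc7a6, the light chain y+LAT2 that exchanges arginine for neutral amino acids, did not pass the threshold. Its RPKM values were 16.2, 15.5, 15.0 and 13.6 at 1 week, against 12.0, 13.0, 12.7 and 15.6 at 3 weeks. The groups overlapped, and the log2 fold change was -0.02 (standard error 0.12, adjusted p = 0.932, edgeR). Among the 6 light chains that pair with Slc3a2, Slc7a6 held 11.3%, 9.36%, 17.1% and 11.1% of the summed RPKM at 1 week and 32.4%, 33.8%, 43.7% and 47.7% at 3 weeks. Its share was higher in every 3-week sample, while that of Slc7a5 went from 83.1% ± 4.57 to 55.1% ± 5.32 (SD, n = 4). All 6 light chains together were at 1.37 to 1.56 times the Slc3a2 RPKM at 1 week and at 0.892 to 1.25 times at 3 weeks.

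**Figure D3:**
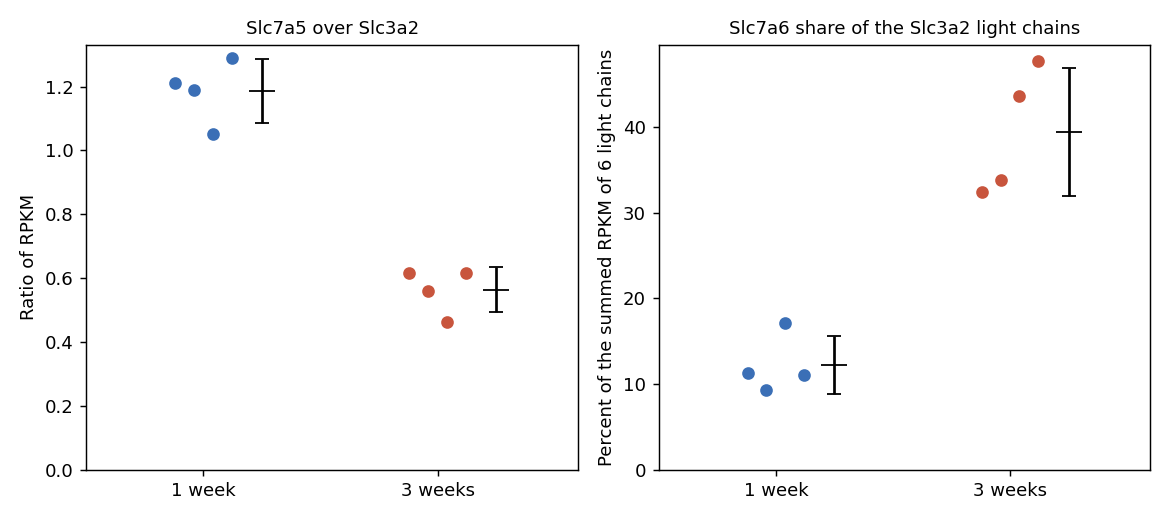
Left, ratio of Slc7a5 to Slc3a2 RPKM. Right, Slc7a6 as percent of the summed RPKM of the light chains Slc7a5, Slc7a6, Slc7a7, Slc7a8, Slc7a10 and Slc7a11. Points are samples, and bars give the mean and SD of 4 samples. In both panels the times do not overlap, with ratios of 1.05 to 1.29 against 0.464 to 0.616 and shares of 9.36% to 17.1% against 32.4% to 47.7%.

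Slc7a11 (ENSMUSG00000027737, chromosome 3, 49892526 to 50443614) encodes xCT, the exchanger of cystine for glutamate that feeds glutathione synthesis. Its RPKM values were 3.41, 3.99, 1.91 and 3.08 at 1 week, against 0.678, 0.778, 0.630 and 0.391 at 3 weeks. The groups did not overlap, and the log2 fold change was -2.15 (standard error 0.28, adjusted p = 0.000821, edgeR). The log2 ratio of Slc7a11 to Slc7a5 was -5.13 ± 0.07 at 1 week and -4.96 ± 0.33 at 3 weeks (SD, n = 4), a difference of 0.17 that a two-sided exact permutation test did not separate from the sample spread (p = 0.429, adjusted p = 0.429 over the 3 ratios). Gclc, which encodes the catalytic subunit of the first enzyme of glutathione synthesis, moved the other way, with 27.7 ± 8.18 RPKM in the 1-week and 39.8 ± 6.85 RPKM in the 3-week samples (SD, n = 4; log2 fold change 0.68, adjusted p = 0.0332, edgeR).

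Slc7a8, or LAT2, was at 0.798, 0.892, 3.10 and 4.76 RPKM at 1 week and at 1.77, 1.68, 0.377 and 0.367 RPKM at 3 weeks. The samples split within each time, and the log2 fold change of -1.04 did not pass the threshold (standard error 0.71, adjusted p = 0.292, edgeR). The 1-week replicates 3 and 4, where Slc7a8 was high, also had the highest levels of the melanocyte gene Tyrp1 (7.07 and 9.54 RPKM, against 2.10 and 1.27 in replicates 1 and 2) and of the suprabasal gene Sbsn (83.8 and 97.9 RPKM, against 36.3 and 19.4). At 3 weeks Slc7a8 was highest in replicates 1 and 2, where Tyrp1 was at 0.341 and 3.01 RPKM, the lowest and the highest of that time, and Sbsn at 17.6 and 30.1 RPKM. The part of such cells in its level was not tested. Slc7a7 was between 0.158 and 0.527 RPKM in all samples (log2 fold change 0.32, adjusted p = 0.609, edgeR). Slc7a9, Slc7a10 and Slc7a13 had 1, 2 and 2 reads in all 8 samples, and Slc7a12 and Slc7a15 had 0, where 3 reads correspond to at most 0.120 RPKM.

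Because ATF4 acts on several of these genes through a known DNA element, the sequence around their start sites was searched. RefSeq promoter windows (GRCm38.p6, 250 bases before to 50 bases after a start) were available for 31 of the 42 genes. Of the called genes 7 had a window. Slc7a5, Slc7a3, Slc1a5 and Slc43a3 had none, so their promoters were not searched. The amino acid response element was searched as TGATGNAA on both strands, the antioxidant response element as TGACNNNGC, the AP-1 element as TGAGTCA, the E-box as CACGTG and the core of the NFAT5 element as TGGAAA. The amino acid response element was found in 4 of the 42 windows of these genes, against 3.97% of all 32851 windows. The windows belonged to 3 of the 31 genes, namely Slc7a11, Slc1a4 and Slc7a7, against 4.51% of all genes with a window. The Slc7a11 window held it in both orientations, beginning 66 and 47 bases before the start. Slc1a4 held it 4 bases before the start. These windows are shown because they place the same element at a gene that fell and at a gene that did not pass the threshold. Both are on the minus strand, at chr3:50443564-50443863 and chr11:20332664-20332963, and capitals mark the element.
Slc7a11: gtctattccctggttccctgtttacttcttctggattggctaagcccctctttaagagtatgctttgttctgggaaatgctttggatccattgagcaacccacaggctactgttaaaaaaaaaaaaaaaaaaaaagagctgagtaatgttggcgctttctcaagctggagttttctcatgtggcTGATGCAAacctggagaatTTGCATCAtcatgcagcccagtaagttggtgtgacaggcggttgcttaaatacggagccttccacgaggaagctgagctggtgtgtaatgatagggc
Slc1a4: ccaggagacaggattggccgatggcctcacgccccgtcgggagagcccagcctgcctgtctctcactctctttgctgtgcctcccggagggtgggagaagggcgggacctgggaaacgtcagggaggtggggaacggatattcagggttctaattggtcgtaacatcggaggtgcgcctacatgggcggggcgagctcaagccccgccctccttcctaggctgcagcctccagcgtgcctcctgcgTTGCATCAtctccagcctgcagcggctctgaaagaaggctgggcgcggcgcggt
A match is a description of these letters in this window and not evidence of binding. Elements outside the windows, such as in introns, were not searched. The antioxidant response element was found in 6 of the 42 windows of the transporter genes, against 12.4% of all windows. The AP-1 element was found in 2, against 5.20%.

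Of the 5 genes in the branch of cationic amino acid carriers, 4 could be tested, and 2 were lower, 1 was higher and 1 did not pass the threshold, beside 17.0% lower and 15.7% higher over all tested genes. The higher gene, Slc7a14, had 2 reads at 1 week and entered the test only through its 360 reads at 3 weeks. Slc7a1 (ENSMUSG00000041313, chromosome 5, 148327410 to 148399904) encodes CAT1, the main carrier of cationic amino acids in most tissues. It was at 26.7, 31.4, 22.7 and 31.2 RPKM at 1 week and at 9.95, 10.3, 5.93 and 5.57 RPKM at 3 weeks. The groups were separate, and the log2 fold change was -1.66 (standard error 0.22, adjusted p = 0.000907, edgeR). Slc7a3 (ENSMUSG00000031297, chromosome X, 101079210 to 101086020), which encodes CAT3, had 10.5, 13.7, 2.74 and 5.26 RPKM at 1 week and 0.808, 0.724, 0.788 and 1.67 RPKM at 3 weeks. Its 1-week samples varied widely, yet all were above the 3-week samples, and the log2 fold change was -2.86 (standard error 0.51, adjusted p = 0.00318, edgeR). Slc7a2, or CAT2, had 23 reads in all samples. The summed RPKM of Slc7a1, Slc7a2 and Slc7a3 was 36.1 ± 8.06 at 1 week and 8.97 ± 2.30 at 3 weeks (SD, n = 4). Slc7a4, a relative of this branch, was between 0.187 and 0.419 RPKM (log2 fold change 0.41, adjusted p = 0.344, edgeR), with 12.7% unique reads.

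Slc7a14, a further relative of the cationic carriers, had nearly no reads at 1 week and was detected in every 3-week sample. It was below 1 RPKM in all samples and is described here because of its values. Its exon reads numbered 0, 1, 0 and 1 at 1 week and 93, 78, 115 and 74 at 3 weeks, or 0.508, 0.483, 0.712 and 0.513 RPKM at 3 weeks. All 3-week samples were far above the 1-week samples. Because the gene entered the test only through its 3-week reads, its adjusted p-value (0.000164, edgeR) adds no support. Per mapped read the 3-week samples together had 195 times as many reads as the 1-week samples, with a 95% exact interval of 53.5 to 1610 that covers counting error only. Of its reads 97.8% were unique, and the unique reads alone were 0 in every 1-week sample. Its antisense neighbour Gm15496, which overlaps it, was at most 0.0272 RPKM. The gene (ENSMUSG00000069072) lies on the minus strand of chromosome 3, 31202858 to 31310378. Its promoter window at chr3:31310270-31310569 is shown because this gene had nearly no reads at 1 week and reads in every sample at 3 weeks. Capitals mark a core of the NFAT5 element, present in 21.4% of all windows, and after it an E-box, present in 7.15%. The NFAT5 core was found in 9 of the 42 windows of the transporter genes. These belonged to 7 of 31 genes, against 23.9% of all genes with a window. Besides Slc7a14 they were Slc38a4, which fell, Slc43a2, Slc38a6, Slc38a7, Slc7a7 and Slc36a3.
Slc7a14: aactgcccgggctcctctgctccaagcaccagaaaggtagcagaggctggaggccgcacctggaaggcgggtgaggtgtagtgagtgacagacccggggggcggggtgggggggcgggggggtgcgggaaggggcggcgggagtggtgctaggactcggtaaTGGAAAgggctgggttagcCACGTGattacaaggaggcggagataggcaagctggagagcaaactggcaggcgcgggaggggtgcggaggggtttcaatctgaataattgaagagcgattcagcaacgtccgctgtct

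**Figure D4:**
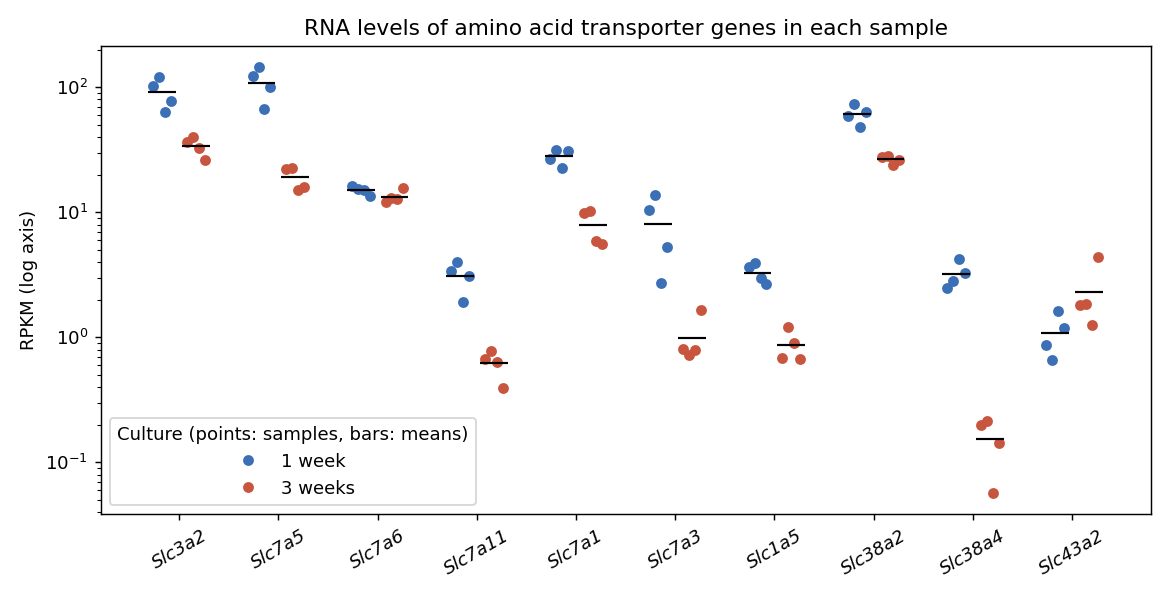
RPKM (log axis) of 10 transporter genes in the 4 samples of each time (points) with group means (bars). The 3-week points lie below all 1-week points for Slc3a2, Slc7a5, Slc7a11, Slc7a1, Slc7a3, Slc1a5, Slc38a2 and Slc38a4, and overlap them for Slc7a6 and Slc43a2.

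The sodium-coupled carriers of the Slc38a family differed among themselves. Slc38a2 (ENSMUSG00000022462, chromosome 15, 96687392 to 96699730) encodes SNAT2, a system A carrier of small neutral amino acids that is induced by amino acid shortage and by hypertonic stress. It was at 59.1, 73.7, 48.4 and 63.5 RPKM at 1 week and at 27.8, 28.3, 23.8 and 26.2 RPKM at 3 weeks. The groups did not overlap, and the log2 fold change was -1.04 (standard error 0.15, adjusted p = 0.00106, edgeR). Slc38a4 (ENSMUSG00000022464, 96994820 to 97055956), which encodes the system A carrier SNAT4, had 2.49, 2.83, 4.23 and 3.30 RPKM at 1 week and 0.201, 0.214, 0.0572 and 0.144 RPKM at 3 weeks. At 3 weeks these values rest on 4 to 16 reads per sample, against 202 to 259 at 1 week. Its log2 fold change of -4.21 was the most negative among the tested transporter genes (standard error 0.34, adjusted p = 0.000193, edgeR). Because the gene entered the test through its 1-week reads, this p-value adds no support. Slc38a1, which encodes SNAT1, was between 0.217 and 0.760 RPKM and did not pass the threshold (log2 fold change 0.52, standard error 0.38, adjusted p = 0.324, edgeR).

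These 3 system A genes lie side by side on chromosome 15, with 44478 bases between Slc38a1 and Slc38a2 and 295089 bases between Slc38a2 and Slc38a4, and no other protein-coding gene in between. The ratio of Slc38a2 to Slc38a1 RPKM was 188, 110, 132 and 293 at 1 week and 36.6, 59.9, 50.3 and 89.7 at 3 weeks. All 3-week ratios were lower, and the mean log2 ratio differed by -1.59 (two-sided exact permutation test, p = 0.0286, adjusted p = 0.0429 over the 3 ratios). Within the shared preparations it differed by -2.36, -1.14 and -1.71 (exact sign-flip test, p = 0.250, adjusted p = 0.375). Slc38a2 made up 94.3% ± 2.01 of the system A RPKM at 1 week and 97.6% ± 0.704 at 3 weeks (SD, n = 4).

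Members of Slc38a and Slc36a that act at lysosomes did not pass the threshold. Slc38a9, the lysosomal arginine sensor of mTORC1, was at 0.404 to 0.497 RPKM at 1 week and 0.434 to 0.649 RPKM at 3 weeks (log2 fold change 0.44, standard error 0.19, adjusted p = 0.105, edgeR). Slc38a7, a lysosomal exporter of glutamine, was at 7.04 to 11.4 and 5.63 to 7.60 RPKM (log2 fold change -0.15, adjusted p = 0.602). Slc36a1, which encodes the proton-coupled carrier PAT1 of lysosomes and the plasma membrane, was at 2.15 to 3.22 and 2.77 to 3.84 RPKM. Its log2 fold change of 0.50 missed the threshold (standard error 0.17, adjusted p = 0.0535, edgeR), whereas DESeq2 gave an adjusted p of 0.0242, and over all alternatives it ranged from 0.0242 to 0.179. Slc36a4, or PAT4 (log2 fold change 0.22, adjusted p = 0.259), Slc38a10 (0.19, adjusted p = 0.514) and Slc38a6 (0.33, adjusted p = 0.201) did not pass it either, all in edgeR and with overlapping groups. The summed RPKM of the Slc36a family was 6.22 ± 0.906 at 1 week and 7.07 ± 0.778 at 3 weeks (SD, n = 4). All of it came from Slc36a1 and Slc36a4, since Slc36a2 and Slc36a3, which lie next to Slc36a1 on chromosome 11, had 0 reads.

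The E-box CACGTG, to which the lysosomal factor TFEB and related proteins bind, occurred in 7 of the 42 windows of the transporter genes, against 7.15% of all windows, and so at 7 of 31 genes, against 8.09% of all genes with a window. The genes were Slc36a1, Slc38a7, Slc38a5, Slc43a1, Slc1a6, Slc1a7 and Slc7a14. Of these, Slc38a5, Slc43a1, Slc1a6 and Slc1a7 had too few reads for the main test. The lysosomal Slc38a9 and Slc36a4 had no match in their windows. Slc36a1 held the element at 31 and 3 bases before its start. The Slc36a1 window (plus strand, chr11:55204090-55204389) is shown because it holds the element at 2 places. The capitals mark both, and the longer run includes a match to the antioxidant response element, which overlaps the E-box and occurs in 12.4% of all windows.
Slc36a1: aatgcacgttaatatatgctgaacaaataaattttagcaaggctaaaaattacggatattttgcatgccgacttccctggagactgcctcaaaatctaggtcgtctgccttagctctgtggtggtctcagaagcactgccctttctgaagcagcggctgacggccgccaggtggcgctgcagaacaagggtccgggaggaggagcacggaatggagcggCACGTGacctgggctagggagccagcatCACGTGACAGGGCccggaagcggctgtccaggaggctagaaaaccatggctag

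The system N carriers Slc38a3 and Slc38a5 had 16 and 1 reads in all samples, Slc38a8 had 1, and Slc38a11 had 0.

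In the Slc1a family the exchangers of neutral amino acids were led by Slc1a4. Slc1a5 (ENSMUSG00000001918, chromosome 7, 16781340 to 16798274) encodes ASCT2, a carrier of glutamine. Its RPKM values were 3.66, 3.93, 2.97 and 2.65 at 1 week, against 0.681, 1.22, 0.905 and 0.669 at 3 weeks. The groups were separate, and the log2 fold change was -1.76 (standard error 0.25, adjusted p = 0.00113, edgeR). Slc1a4, or ASCT1, an exchanger of alanine, serine and cysteine, was more abundant than Slc1a5 in every sample, at 9.21 to 22.3 RPKM at 1 week and 5.62 to 11.8 RPKM at 3 weeks. Its 1-week replicates 1 and 2 were above all other samples, replicates 3 and 4 were within the 3-week range, and the log2 fold change of -0.54 did not pass the threshold (standard error 0.33, adjusted p = 0.247, edgeR).

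Of the glutamate carriers of Slc1a only Slc1a1 passed the filter on low reads, and a single sample stood out. Slc1a1, which encodes EAAT3, a carrier of glutamate, aspartate and cysteine, was at 0.992 to 2.33 RPKM at 1 week and at 1.04, 1.66, 1.40 and 19.0 RPKM at 3 weeks. Only the 3-week replicate 4 was high, and the log2 fold change of 1.92 did not pass the threshold (standard error 0.91, adjusted p = 0.135, edgeR). Without this sample it was -0.08, and over all alternatives the adjusted p-value ranged from 0.0873 to 0.872. The same sample had 263 unique exon reads, against 14 to 51 in the others, and 312 intron reads, within the range of 301 to 583 of the other samples. Slc1a3, or EAAT1, had 58 reads at 1 week and 8 at 3 weeks, too few for the main test, and without a filter on low counts it was lower at 3 weeks (adjusted p = 0.0209, edgeR). Slc1a2, Slc1a6 and Slc1a7 had 18, 2 and 2 reads in all samples.

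The facilitators of the Slc43a family moved in different directions at low levels. Slc43a2 (ENSMUSG00000038178, chromosome 11, 75531694 to 75577575), which encodes LAT4, a facilitator of branched-chain amino acids and phenylalanine, was at 0.863, 0.662, 1.63 and 1.19 RPKM at 1 week and at 1.83, 1.85, 1.25 and 4.38 RPKM at 3 weeks. The groups overlapped, and the log2 fold change was 1.24 (standard error 0.40, adjusted p = 0.0397, edgeR). This call was lost when any of 6 of the 8 samples was left out, namely replicate 1, 2 or 4 of either time, with adjusted p-values between 0.0542 and 0.114 (edgeR). With shared preparations as a block it was 0.0534, and over all alternatives it ranged from 0.00851 to 0.114. Slc43a1, which encodes the related LAT3, had 9, 11, 5 and 6 reads at 1 week and 0 in all 3-week samples. With the level at 3 weeks set to 3 reads over the group it was at least 9.55-fold lower, and by the exact 95% interval of the ratio, which also covers the counting error at 1 week, at least 7.31-fold lower. It entered no main test, and without a filter on low counts it was lower at 3 weeks (adjusted p = 0.00411, edgeR). Slc43a3, described as a carrier of purine nucleobases rather than amino acids, was below 1 RPKM and is given because it was called. It was at 0.156 to 0.827 RPKM at 1 week and 0.0601 to 0.152 RPKM at 3 weeks (log2 fold change -1.93, standard error 0.53, adjusted p = 0.0218, edgeR). Because the gene entered the test through its 1-week reads, with 5 to 10 reads per sample at 3 weeks, this p-value adds no support. The call was lost in 4 of the 8 fits that left out a sample, those without 1-week replicate 2 or 4 or 3-week replicate 1 or 2, with adjusted p-values between 0.0535 and 0.0628 (edgeR). With shared preparations as a block it was 0.0614, and over all alternatives it ranged from 0.00471 to 0.0664.

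In most of the 9 genes that fell, the same sample was the highest of its time. At 1 week replicate 2 was the highest in 8 of the 9 genes and replicate 3 the lowest in 7. At 3 weeks replicate 2 was the highest in 7. The lowest 3-week sample varied, with replicate 4 in 4 genes, replicate 3 in 3 and replicates 1 and 2 in 1 each. With the 9 genes chosen by the test, their summed RPKM was 308 ± 75.9 at 1 week and 90.2 ± 13.8 at 3 weeks (SD, n = 4), and that of the other 33 genes was 60.4 ± 6.30 and 56.9 ± 9.20. This is a description of the selection and not a test.

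Genes that work with the carriers were compared from 6 lists, named in what follows, with 97 tested genes in all, of which 31 were lower and 13 higher at 3 weeks. The shares over all tested genes, 17.0% lower and 15.7% higher, are the background for these and the following counts. With the shared preparations as a block, 27 were lower and 9 higher, and 9 of the calls were lost and 1 was gained (edgeR). Of the lost calls 5 were in the list of mTORC1 sensing, 2 in the amino acid response list and 1 each among the enzymes and the mitochondrial carriers. The amino acid response list holds Atf4, genes that act upstream of it, its partners and its targets outside the carriers. It was lower for the most part, with 14 of 23 tested genes lower, 2 higher and a median log2 fold change of -1.26. The higher genes were Nupr1 (log2 fold change 1.62, adjusted p = 0.0284, edgeR) and Ddit4 (0.45, adjusted p = 0.0255, edgeR). With the shared preparations as a block, the call of Ddit4 was lost (adjusted p = 0.145, edgeR). Cth, the enzyme that makes cysteine from cystathionine, had 50.2 ± 27.3 RPKM early and 4.43 ± 0.849 RPKM late (SD, n = 4; log2 fold change -3.34). Psat1 and Shmt2, enzymes of serine and glycine synthesis, had log2 fold changes of -2.72 and -1.97, and Trib3, a pseudokinase induced by ATF4, of -2.48. Their adjusted p-values in edgeR were 0.000717 for Cth, 0.000448 for Psat1, 0.000717 for Shmt2 and 0.00758 for Trib3. Atf4 itself, named for its place in the list, was at 228, 247, 126 and 163 RPKM at 1 week and 78.1, 68.9, 63.5 and 54.1 RPKM at 3 weeks (log2 fold change -1.36, adjusted p = 0.00254, edgeR). As in most of the carriers that fell, replicate 2 was the highest and replicate 3 the lowest of its 1-week samples.

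Among 38 tested genes of amino acid sensing by mTORC1, 7 were higher and 5 lower, with a median log2 fold change of 0.18, which is near the background of 15.7% higher and 17.0% lower. Rragc, a Rag GTPase that recruits mTORC1 to lysosomes, rose by 0.67 (35.0 ± 1.84 RPKM early, 49.5 ± 4.49 RPKM late, SD, n = 4, adjusted p = 0.00404, edgeR). Lamtor2, part of the anchor of the Rag GTPases, rose by 0.60 (adjusted p = 0.0166), and Seh1l, of the complex that relieves their inhibition, fell by 0.41 (adjusted p = 0.0401). With the shared preparations as a block both calls were lost, with adjusted p-values of 0.0960 and 0.0721 in edgeR. Of 17 tested enzymes that use the carried amino acids, 6 were lower and 2, Gclc and Gss, were higher, of which Gss was lost with the shared preparations as a block (adjusted p = 0.257, edgeR). Odc1, which makes the polyamine putrescine from ornithine, had 137 ± 5.30 RPKM early and 40.4 ± 17.9 RPKM late (SD, n = 4; log2 fold change -1.58, adjusted p = 0.00885, edgeR). Of the plasma membrane carriers outside the 6 families, 3 of 11 could be tested and 2 were lower. The glycine transporter Slc6a9 fell by 3.00, from 13.0 ± 7.08 to 1.47 ± 0.522 RPKM (SD, n = 4; adjusted p = 0.00157, edgeR). Of 5 tested lysosomal carriers 1 was higher and 1 lower, and of 11 mitochondrial carriers 1 was higher and 3 were lower, numbers too small to set against the background of 15.7% and 17.0%. The mitochondrial carrier Sfxn3 rose by 0.99, from 13.9 ± 2.22 to 24.5 ± 4.17 RPKM (SD, n = 4; adjusted p = 0.00326, edgeR).

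**Figure D5:**
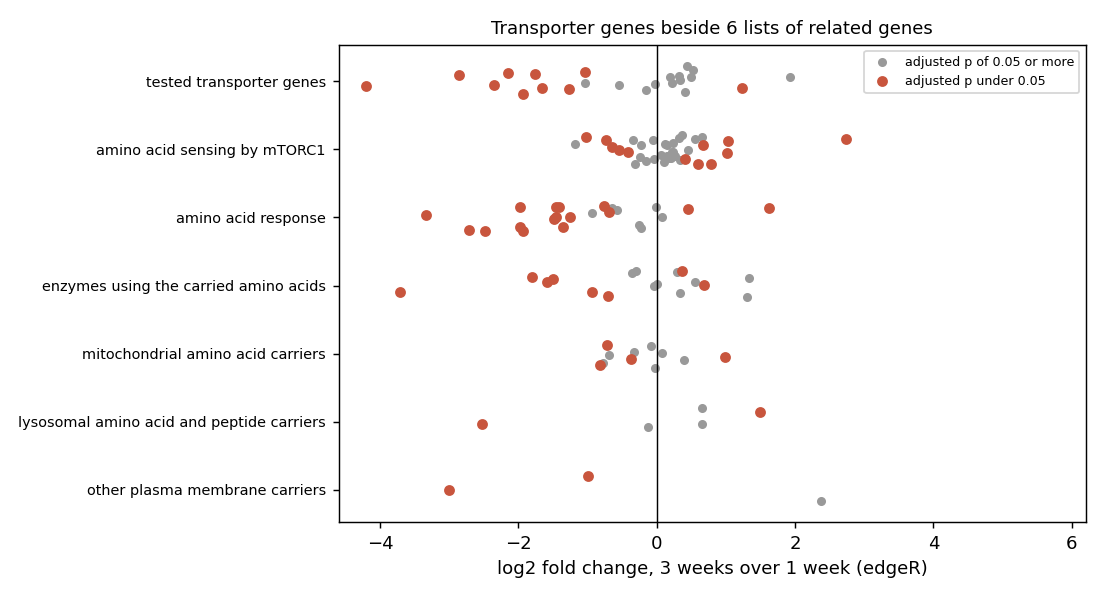
Log2 fold change from edgeR of the 23 tested transporter genes other than Slc7a14 (top row) and of the tested genes of 6 related lists, each point a gene, coloured where the adjusted p-value was under 0.05. The amino acid response row lies mainly below 0, with a median of -1.26, and the row of mTORC1 sensing spreads around 0, with a median of 0.18.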

How the data were processed

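RNA was measured in KCs of a 1-week and a 3-week culture, with 4 samples each. The authors trimmed adapters and aligned the reads to GRCm38 in the CLC Genomics Workbench with its default settings. In the deposited tables, counts are whole numbers of reads on a gene, with no scaling. The authors also deposited RPKM and TPM values, written with decimal commas. Differences in total exon reads were tested by edgeR 4.0.16, run in R 4.3.3 (filterByExpr, TMM, glmQLFit and glmQLFTest, all 8 samples, unpaired as in the study), with Benjamini-Hochberg adjustment over 12590 genes and a threshold of 0.05. Standard errors were derived from the F statistics. On simulated counts the procedure found 82.5% of the 4-fold and 43.4% of the 2-fold changes put in, and made 9 false calls among 12454 genes. The simulation held 196 changed genes and independent samples. In the data 4127 of 12590 genes were called and preparations were shared, so these rates need not carry over.

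The transporter genes, the lists, the motifs and the tests were chosen with earlier results of these data known. RPKM per sample is given for called transporter genes with a mean of at least 1 RPKM at either time and for the 5 with the highest mean. From each list at most 4 called genes with at least 10 RPKM are named, by size of change. Atf4, Nupr1, Ddit4 and Gss were named outside this rule, after their values were seen. Alternatives were DESeq2 1.42.0, other normalizations and filters, unique or all gene reads, limma 3.58.1 on RPKM, blocks and the omission of each sample. No replicates of a time were alike within sampling noise. The p-values measure the spread between these samples.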

Additional observations from a re-analysis of the deposited data

Results flagged for a closer look

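In each time the highest and the lowest of the 4 samples was compared with its neighbour for the 24 tested transporter genes, a check that flags about 1 in 20 groups by chance. Of 48 groups, 4 held a sample that stood apart. Slc1a1 was at 19.0 RPKM in 3-week replicate 4, against 1.04 to 1.66 RPKM in the other 3-week samples. Slc7a3 was at 1.67 RPKM in the same sample, against 0.724 to 0.808 RPKM. Slc7a14 was at 0.712 RPKM in 3-week replicate 3, against 0.483 to 0.513 RPKM. Slc7a7 was at 0.527 RPKM in 1-week replicate 2, against 0.158 to 0.171 RPKM.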

How the results depend on the processing

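Of the 11 transporter genes called, 9 stayed past the threshold in the same direction under every alternative that tested them. The other 2 were Slc43a2 and Slc43a3. The 9 include Slc7a14 and Slc38a4, which entered the test through a single time, so that their stability adds no support. The number of higher transporter genes was 1 in place of 2 with at least 10 reads in every sample, in limma on log2(RPKM + 0.1) and log2(RPKM + 1), and with shared preparations as the block (46, 49 and 90, from the file names), and 1 to 3 with each sample left out. The number of lower ones was 7 to 11 in all alternatives. All higher genes numbered 1292 and 1252 in the limma fits and 1316 with shared preparations, against 1981, and 1371 to 2284 with a sample left out. Higher genes of the 6 lists numbered 8 in limma on log2(RPKM + 0.1), against 13, and 8 to 16 with a sample left out. With the replicate numbers as a block, 2 transporter genes were higher and 8 lower (Slc43a3 lost, adjusted p = 0.0520, edgeR), 7 genes of the lists were higher and 1309 of all genes. Same-numbered samples had correlations of -0.23, -0.15, -0.15 and 0.25, so that the numbers were not taken to pair them. Samples of the shared preparations 46, 49 and 90 had -0.23, 0.20 and 0.25. The ratios of Slc7a5 to Slc3a2 and of Slc38a2 to Slc38a1 kept their direction in every pair, with mean log2 differences of -1.08 and -1.59 between same-numbered samples, a replicate block (exact sign-flip test, adjusted p = 0.188, where p cannot go below 0.125) and of -0.98 and -1.74 within shared preparations (adjusted p = 0.375, p at least 0.250), a pairing of the ratios chosen after seeing the data. With 1 RPKM added to each gene, which exceeds the 3-week level of Slc7a11, the log2 ratio of Slc7a11 to Slc7a5 differed by 1.11 (exact permutation test, adjusted p = 0.0286). With a sample left out, signs changed for Slc7a6 (-0.07 to 0.04), Slc38a7 (-0.24 to 0.00) and Slc1a1 (-0.08 to 2.27), none of them called. The cause of these shifts was not tested. At 4 samples a time, changes of 2-fold can be missed.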
